A study of Mus musculus with 8 samples.

Results

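The genes described here run the synthesis, uptake and efflux of cholesterol. The list held 31 genes, taken by symbol from a count table of 24426 genes, and all 31 were present and abundant enough to be tested. They were read by role, with 8 enzymes from acetyl-CoA to squalene, 10 enzymes from squalene to cholesterol, 4 genes that control the SREBP transcription factors, 5 of sterol transport and uptake, 1 of storage, and 3 of efflux and its liver X receptor (LXR). The RNA came from mouse Th17 cells, the helper T cells that make interleukin 17, on the C57BL/6J background. They were grown in the culture that the labels call Th17(23) and harvested at day 4 to 5, and libraries were made from polyadenylated RNA. The study asks how the miR-183/96/182 cluster, called miR-183C in the labels, regulates the pathogenic function of these cells. Each of the 4 groups had 2 libraries. One group had been transduced with a control vector and one with miR-96, the overexpression group, and neither has a cluster genotype in its labels. Cells of the other groups had not been transduced. Their labelled genotypes are miR-183C+/+, called wild type here, and miR-183C-/-, the knockout. The labels do not say in which cells or from what stage the cluster was deleted. The protocol describes a sort for GFP-positive cells without saying how this applied to cells that were not transduced. Nothing says that the libraries of a group came from separate animals or cultures, and p-values measure the spread between these libraries. Sex-linked RNA, given below, differed within the miR-96, wild-type and knockout groups, so their libraries were not repeats of the same RNA. The control vector libraries also differed, by a chi-square of counts per gene of 22.4, against 8.61 to 22.3 in the other groups. How far this spread is technical was not tested.

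Cells make cholesterol from acetyl-CoA through mevalonate, farnesyl diphosphate, squalene and lanosterol. When membrane sterol is low, SCAP carries the precursor of SREBP-2 from the endoplasmic reticulum to the Golgi, where a pair of proteases frees the factor that turns on these enzymes. When sterol is plentiful, INSIG proteins hold SCAP back, while oxysterols activate LXR, which raises the exporters ABCA1 and ABCG1 and MYLIP, a ligase that marks lipoprotein receptors for breakdown. Activated T cells raise sterol synthesis as they grow. In mouse liver, SREBP-2 has been reported to switch on the miR-183/96/182 locus, with miR-96 acting on Insig2 and miR-182 on Fbxw7, which marks nuclear SREBP for breakdown.

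The mature microRNAs of the cluster are shown because their seeds, bases 2 to 8, define the sites searched in the sterol genes. RefSeq places them on chromosome 6 of GRCm38.p6. Capitals mark the seed.
miR-183-5p, chr6:30169711-30169732, minus strand: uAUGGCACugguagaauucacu
miR-96-5p, chr6:30169506-30169528, minus strand: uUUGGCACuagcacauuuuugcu
miR-182-5p, chr6:30165962-30165986, minus strand: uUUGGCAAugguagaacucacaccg

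Matches to these seeds were searched in the longest 3′ UTR that GENCODE release M21 gives each gene. Of the 31 members, 8 held a 7-base match for miR-96 (GTGCCAA), against 9.40% of the 11061 tested genes with an annotated 3′ UTR. They were Acat2, Hmgcs1, Sc5d, Insig2, Tmem97, Soat1, Abca1 and Abcg1. For miR-183 (GTGCCAT) there were 5 members against 10.8% of genes, and for miR-182 (TTGCCAA) 3 against 12.3%. Any of the 3 was found in 12 members, with 26.5% of tested genes. A match is a stretch of letters and was not tested as a functional site. The sites below, on GRCm38, are those of the reported target Insig2, of Hmgcs1 and Abca1, an enzyme and an exporter whose values differed in opposite directions, and of the companion genes Fbxw7 and Scarb1. Capitals mark the match to the seed.
Insig2, miR-96-5p, chr1:121305594-121305622, minus strand: acaatgtcaatGTGCCAAacgtgttactg
Hmgcs1, miR-96-5p, chr13:119707942-119707970, plus strand: ttaacgtttggGTGCCAAgaagtgggttt
Abca1, miR-96-5p, chr4:53033433-53033461, minus strand: cagagttactaGTGCCAAgttgctcagaa
Abca1, miR-183-5p, chr4:53032585-53032613, minus strand: gcagatttcctGTGCCATttattcagctg
Scarb1, miR-96-5p, chr5:125277416-125277444, minus strand: gtcggcctcttGTGCCAAggccaggcaag
Fbxw7, miR-182-5p, chr3:84978118-84978146, plus strand: cttttttttttTTGCCAAccattgccaat
Fbxw7, miR-182-5p, chr3:84978128-84978156, plus strand: tttgccaaccaTTGCCAAtgtcaatcaat

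Libraries held 7142429 to 12452659 estimated counts. Levels are given as CPM, the count of a gene scaled to the size of its library, and log2 ratios are log2 fold changes from the edgeR fit. T cell and Th17 genes were present in all 8 libraries, with Cd4 at 350.1 to 579 CPM and Il17a, which encodes interleukin 17A, from 14.5 to 330.0 CPM, while summed erythroid genes stayed at or below 1.68 CPM. Mir96 had 7 and 2 counts in the miR-96 libraries, and 0 in the other 6, wild type included, while Mir182 and Mir183 had 0 in all 8. Mature microRNA is not captured from polyadenylated RNA, so these counts do not check the knockout label, and 0 counts allow up to 0.235 to 0.406 CPM by library. Knockout library 1 stood apart in its values, with 55.6% of detected genes at estimated counts that are not whole numbers (tolerance 0.02), against 6.39% to 7.41% elsewhere. Sex-linked RNA differed as well. Y-linked genes (4) summed to 1.02 and 0.0967 CPM in control vector libraries, 111 and 329.8 in miR-96 libraries, 114 and 283 in wild-type libraries and 244 and 266 in knockout libraries. Xist, which is expressed from the inactive X chromosome of females, stood in the same order at 1220.3 and 1480.4, 1082 and 166, 1217 and 389.7, and 0 and 144 CPM, so it was lower in both knockout libraries than in both wild-type libraries. The labels do not give the sex of the animals or whether they were pooled, and the part of sex in the results was not tested.

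In knockout cells the enzymes of cholesterol synthesis were higher together. With wild type as the reference, 19 of 31 members rose and 0 fell (edgeR quasi-likelihood test over all genes, adjusted p under 0.05), against 6.63% of the 11851 genes tested called higher and 6.4% called lower. Synthesis genes made up 16 of the 19, and the others were Srebf2, Insig1 and Stard4. The called enzymes were 1.49 to 3.42 times their wild-type level, with edgeR adjusted p from 0.0246 to 0.0496. The median log2 fold change was 0.77 over the members and -0.0078 over all genes tested.

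The 18 synthesis enzymes summed to 1199 and 1298 CPM in wild type and to 2856 and 2119.6 CPM in the knockout, a ratio of means of 1.99. Knockout library 1 was above knockout library 2 for 17 of the 18 enzymes and was the highest of all 8 libraries for 16. In this library 27 of the 31 members had estimated counts that are not whole, against 1 to 3 in each other library. Whether this bears on the levels was not tested. Proliferation genes were also higher, summing to 3394 and 3512 CPM in wild-type libraries and 4829 and 4435 CPM in knockout libraries, and B and plasma cell genes were lower, at 75.8 and 156 against 17 and 18.2 CPM. Their part in the enzyme levels was not tested. In bulk RNA, more cells of one kind and more RNA per cell cannot be told apart.

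**Figure D1:**
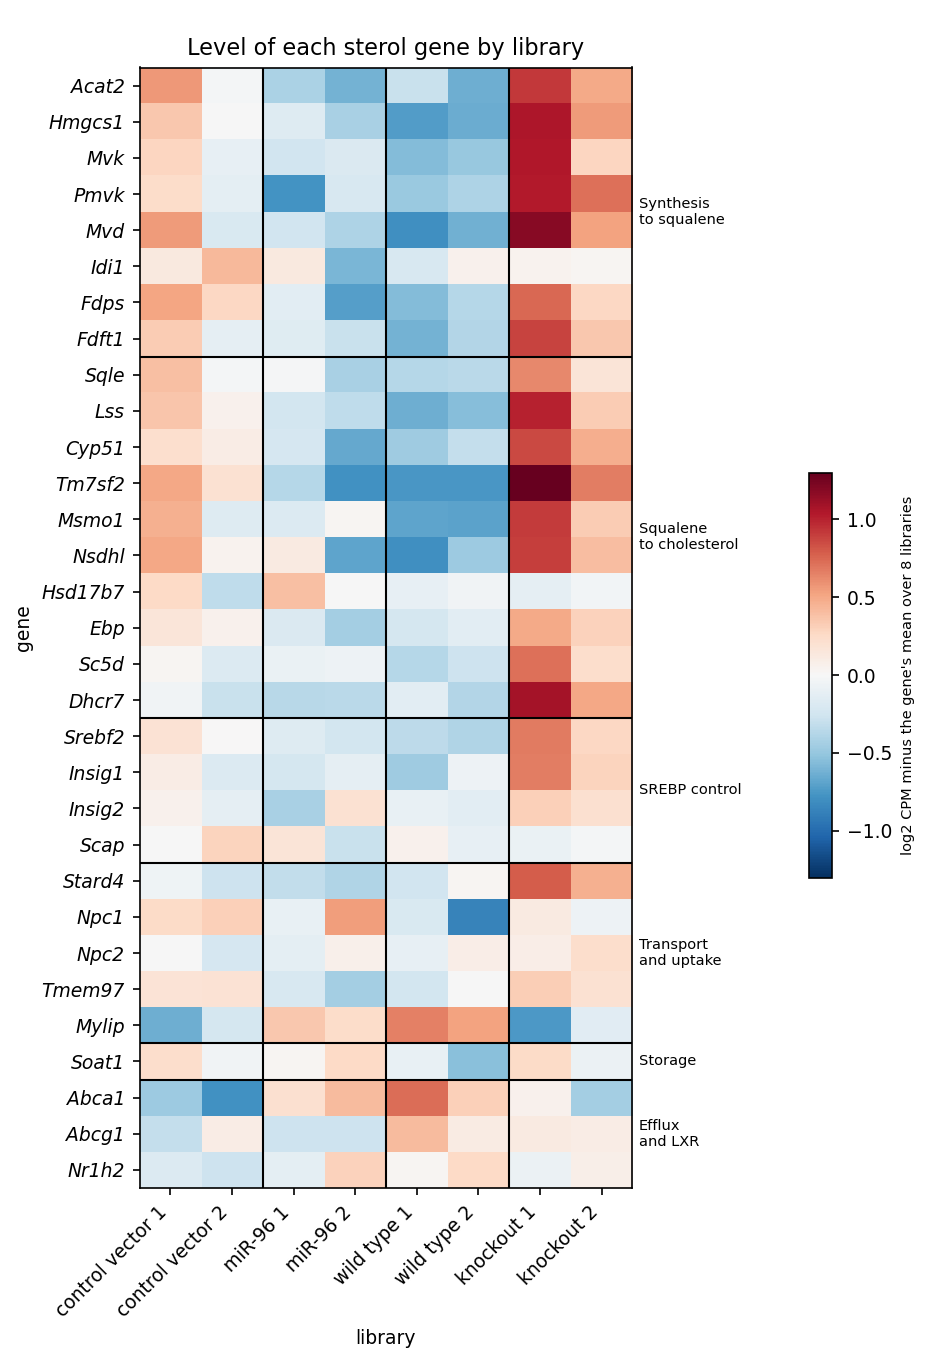
Each row is 1 of the 31 genes, ordered by role, and each column 1 of the 8 libraries. Colour gives the log2 CPM minus the mean of that gene over the 8 libraries, red for higher and blue for lower, so rows cannot be compared in absolute level. The columns of the knockout are red for the 16 synthesis enzymes called, deepest in library 1, and those of wild type and miR-96 are mostly blue.

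The enzymes up to squalene, which begin with the mevalonate pathway, moved with little exception, and 7 of 8 rose. Hmgcs1 (chromosome 13, 119690379 to 119708260, plus strand) encodes the synthase that joins acetyl-CoA to acetoacetyl-CoA at the head of the pathway. It stood at 172 and 182 CPM in the wild-type libraries and 591 and 419 CPM in the knockout libraries, so the groups lay far apart (edgeR log2 ratio 1.51 ± 0.20 SE, adjusted p = 0.0246). In mean and SD this was 505 ± 122 against 177 ± 6.81 CPM (n = 2). Acat2, the cytosolic thiolase that makes acetoacetyl-CoA, stood at 64.7 and 50.9 CPM in the wild-type libraries and 150.1 and 112 CPM in the knockout libraries (edgeR log2 ratio 1.18 ± 0.23 SE, adjusted p = 0.0266). Its estimated counts were not whole in any of the 8 libraries, so its level rests on estimates throughout. Those of Hmgcs1 and Fdps were not whole in 4 of the libraries other than knockout library 1, by at most 0.09 and 0.06 of a count. Hmgcs1 also shares 557 exon bases with the antisense gene Gm48342 on the opposite strand. Mvk, mevalonate kinase, stood at 11.3 and 11.9 CPM in the wild-type libraries and 34.4 and 20.2 CPM in the knockout libraries, a 2.34-fold rise (edgeR log2 ratio 1.23 ± 0.28 SE, adjusted p = 0.0317). Pmvk, the kinase that follows it, stood at 19.0 and 20.0 CPM in the wild-type libraries and 54.4 and 43.7 CPM in the knockout libraries (edgeR log2 ratio 1.33 ± 0.23 SE, adjusted p = 0.0250), and both knockout values were more than the higher wild-type value. The decarboxylase Mvd, which yields isopentenyl diphosphate, had the largest log2 ratio of the branch and stood at 29.0 and 32.7 CPM in the wild-type libraries and 114 and 72.7 CPM in the knockout libraries (edgeR log2 ratio 1.60 ± 0.28 SE, adjusted p = 0.0251).

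Farnesyl diphosphate synthase and squalene synthase, the last enzymes before the sterol branch, rose too. Fdps stood at 126 and 144 CPM in the wild-type libraries and 313 and 225 CPM in the knockout libraries (edgeR log2 ratio 0.99 ± 0.23 SE, adjusted p = 0.0317), and Fdft1 at 66.8 and 78.4 CPM in the wild-type libraries and 188 and 130.2 CPM in the knockout libraries (edgeR log2 ratio 1.13 ± 0.22 SE, adjusted p = 0.0261). Fdps shares 1124 exon bases with the predicted gene Gm43738 on its own strand, and Fdft1 shares 774 with Ctsb on the opposite strand, and how reads in these stretches were assigned is not given. Idi1, the isomerase between Mvd and Fdps, was the exception. Its groups overlapped at 201 and 240.2 CPM in the wild-type libraries and 239 and 235 CPM in the knockout libraries, and the log2 ratio was 0.11 (95% interval -0.41 to 0.62, edgeR adjusted p = 0.770).

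From squalene to cholesterol, 9 of 10 enzymes rose. Tm7sf2, a sterol C14 reductase, had the largest log2 fold change of all members. It stood at 6.21 and 6.24 CPM in the wild-type libraries and 26.1 and 16.7 CPM in the knockout libraries (edgeR log2 ratio 1.78 ± 0.29 SE, adjusted p = 0.0246), with both wild-type libraries near the bottom of its range. Its exons share 532 bases with Vps51 on the same strand. Sqle, squalene epoxidase and a rate-limiting step of the pathway, stood at 85.1 and 86.4 CPM in the wild-type libraries and 169 and 123 CPM in the knockout libraries, a 1.71-fold rise (edgeR log2 ratio 0.77 ± 0.21 SE, adjusted p = 0.0461). Lss, which closes squalene epoxide to lanosterol, stood at 48.0 and 50.7 CPM in the wild-type libraries and 149 and 93.6 CPM in the knockout libraries (edgeR log2 ratio 1.3 ± 0.22 SE, adjusted p = 0.0246). Cyp51, the lanosterol demethylase, stood at 141 and 156 CPM in the wild-type libraries and 351 and 269 CPM in the knockout libraries (edgeR log2 ratio 1.06 ± 0.19 SE, adjusted p = 0.0251), so for these 3 steps in a row the knockout libraries were all above the wild-type libraries.

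The enzymes that trim lanosterol at carbon 4 also stood apart between the groups. Msmo1, the methyl oxidase, stood at 48.0 and 47.9 CPM in the wild-type libraries and 145 and 97.6 CPM in the knockout libraries (edgeR log2 ratio 1.34 ± 0.24 SE, adjusted p = 0.0254), and the wild-type libraries lay within 1 CPM of each other. Nsdhl, the decarboxylase of that step, stood at 16.7 and 20.9 CPM in the wild-type libraries and 54.4 and 38.4 CPM in the knockout libraries (edgeR log2 ratio 1.3 ± 0.30 SE, adjusted p = 0.0327). Hsd17b7, which completes the step, was the second enzyme that was not called. Its libraries overlapped at 55.4 and 58.0 CPM in the wild-type libraries and 55.2 and 58.2 CPM in the knockout libraries, with a log2 ratio of 0.00010 (95% interval -0.48 to 0.48). Among the late enzymes, Ebp, the sterol isomerase, stood at 32.7 and 34.9 CPM in the wild-type libraries and 53.8 and 47.2 CPM in the knockout libraries (edgeR log2 ratio 0.58 ± 0.16 SE, adjusted p = 0.0496), the smallest rise among the enzymes called. Sc5d, the sterol desaturase, stood at 52.5 and 56.4 CPM in the wild-type libraries and 112 and 79.7 CPM in the knockout libraries (edgeR log2 ratio 0.81 ± 0.18 SE, adjusted p = 0.0307). Dhcr7, the reductase of the last step by one route, stood at 24.0 and 20.2 CPM in the wild-type libraries and 55.7 and 37.5 CPM in the knockout libraries (edgeR log2 ratio 1.08 ± 0.22 SE, adjusted p = 0.0279). Nsdhl and Ebp are on the X chromosome and the other enzymes on autosomes.

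Of the 4 control genes, Srebf2 and Insig1 rose. Srebf2 (chromosome 15, 82147181 to 82205379, plus strand), which encodes SREBP-2 and is among its own targets, stood at 253 and 244 CPM in the wild-type libraries and 512 and 385 CPM in the knockout libraries (edgeR log2 ratio 0.85 ± 0.16 SE, adjusted p = 0.0258). Insig1, the INSIG that SREBP-2 itself induces, stood at 94.9 and 125 CPM in the wild-type libraries and 207 and 159 CPM in the knockout libraries (edgeR log2 ratio 0.73 ± 0.19 SE, adjusted p = 0.0405). Both knockout libraries were above both wild-type libraries for each gene. Insig2, the reported miR-96 target in mouse liver, stood at 21.6 and 20.9 CPM in the wild-type libraries and 28.5 and 26.7 CPM in the knockout libraries. Its groups did not overlap, but the difference was not called (edgeR log2 ratio 0.38 ± 0.22 SE, adjusted p = 0.257, 95% interval -0.12 to 0.88). Scap, the escort of SREBP, overlapped at 109.8 and 98.6 CPM in the wild-type libraries and 99.7 and 104 CPM in the knockout libraries (edgeR log2 ratio -0.035 ± 0.18 SE, adjusted p = 0.907).

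Of the 9 genes of transport, storage and efflux, 1 was called, beside 6.63% of all genes called higher and 6.4% called lower. Stard4, a carrier of sterol between membranes whose gene SREBP-2 induces, stood at 76.3 and 92.5 CPM in the wild-type libraries and 156 and 125 CPM in the knockout libraries (edgeR log2 ratio 0.73 ± 0.17 SE, adjusted p = 0.0317). The lysosomal exporters Npc1 and Npc2 stood at 45 and 28.3 CPM in the wild-type libraries and 55.9 and 49.4 CPM in the knockout libraries for Npc1 and at 684 and 781 CPM in the wild-type libraries and 783 and 863 CPM in the knockout libraries for Npc2. Npc1 was separated upward and Npc2 too, if narrowly, and neither was called (log2 ratios 0.53 at an edgeR adjusted p of 0.187, and 0.17 at an edgeR adjusted p of 0.450). Tmem97, a regulator of NPC1, stood at 38.4 and 45 CPM in the wild-type libraries and 56.3 and 51.9 CPM in the knockout libraries (edgeR log2 ratio 0.37 ± 0.16 SE, adjusted p = 0.134). Soat1, which esterifies cholesterol for storage, stood at 28.1 and 20.6 CPM in the wild-type libraries and 35.7 and 28.6 CPM in the knockout libraries (edgeR log2 ratio 0.40 ± 0.22 SE, adjusted p = 0.221). For both the knockout libraries were above the wild-type libraries without a call, where 34.9% of all genes were separated upward.

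Abca1 and Mylip, both LXR targets, had lower values in the knockout and were not called. Abca1 (chromosome 4, 53030787 to 53159895, minus strand), the exporter to lipid-poor apolipoprotein, stood at 16.6 and 12.5 CPM in the wild-type libraries and 10.4 and 7.38 CPM in the knockout libraries (edgeR log2 ratio -0.71 ± 0.28 SE, adjusted p = 0.113), and the groups did not overlap. Mylip stood at 5.00 and 4.56 CPM in the wild-type libraries and 1.89 and 2.86 CPM in the knockout libraries (edgeR log2 ratio -1.0 ± 0.41 SE, adjusted p = 0.124), also without overlap. Abcg1, the exporter to lipoprotein particles, overlapped at 56.8 and 46.0 CPM in the wild-type libraries and 46.3 and 45.6 CPM in the knockout libraries, and Nr1h2, which encodes LXRβ, at 74.8 and 87.6 CPM in the wild-type libraries and 69.8 and 77.2 CPM in the knockout libraries (log2 ratios -0.16 at an edgeR adjusted p of 0.564, and -0.14 at an edgeR adjusted p of 0.583). By overlap of libraries alone, 24 members were higher and 2, Mylip and Abca1, lower in the knockout, where 34.9% of all genes were separated upward and 34.9% downward.

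The calls rested on 3 of the 4 libraries, while the direction of the median did not. No member was called by edgeR without wild-type library 1, knockout library 1 or wild-type library 2, when 20, 0 and 1 genes were called in all, and 18 were called without knockout library 2. In these 4 fits, in the same order, the members' median log2 fold change was 0.75, 0.57, 0.86 and 0.97. With all 8 libraries 22 members had an unadjusted edgeR p under 0.05, as did 4082 of the 11851 genes tested. DESeq2 called 19 members, all among those of edgeR.

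With added miR-96 most of these enzymes had lower values, and no member was called. Of 31 members, 0 passed the edgeR test at an adjusted p under 0.05 (DESeq2 0), against 0.11% of all genes. An unadjusted p under 0.05 was reached by 10 members and by 1031 of the 11851 genes tested. The log2 ratio was below 0 in 25 members and in 17 of the 18 enzymes, with a median of -0.30 over members and 0.0052 over all genes. Without control vector library 1 the members' median was -0.16, and the count at an unadjusted p under 0.05 was 4 without miR-96 library 2 and 6 without control vector library 1 or wild-type library 2. Summed synthesis enzymes stood at 2089.7 and 1747 CPM in control vector libraries and at 1542 and 1232 CPM in miR-96 libraries, a ratio of means of 0.723. The libraries did not overlap for 15 members that were lower and 3 that were higher, where the shares over all genes were 17.6% and 18.3%. Of the 15, 7 act before squalene and 5 after it, and the others were Srebf2, Stard4 and Tmem97.

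The lowest log2 ratios were those of Tm7sf2, Acat2 and Fdps. Tm7sf2 stood at 14.9 and 12.1 CPM in control vector libraries and 8.15 and 6.09 CPM in miR-96 libraries (edgeR log2 ratio -0.92 ± 0.29 SE, adjusted p = 0.444). Acat2 stood at 117 and 78.2 CPM in control vector libraries and 59.7 and 51.9 CPM in miR-96 libraries (edgeR log2 ratio -0.81 ± 0.23 SE, adjusted p = 0.387). For both, each miR-96 library was below each control library. Fdps, which had no seed match in its 3′ UTR, stood at 267 and 224 CPM in control vector libraries and 170.3 and 114 CPM in miR-96 libraries (edgeR log2 ratio -0.79 ± 0.23 SE, adjusted p = 0.387). Hmgcs1, with a miR-96 site, stood at 363 and 284 CPM in control vector libraries and 253 and 213 CPM in miR-96 libraries, without overlap (edgeR log2 ratio -0.47 ± 0.20 SE, adjusted p = 0.566).

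Other enzymes were also separated downward. Pmvk stood at 31.4 and 24.4 CPM in control vector libraries and 15.5 and 22.9 CPM in miR-96 libraries (edgeR log2 ratio -0.55 ± 0.23 SE, adjusted p = 0.573) and Mvd at 74.1 and 44.1 CPM in control vector libraries and 42.3 and 38.2 CPM in miR-96 libraries (edgeR log2 ratio -0.55 ± 0.28 SE, adjusted p = 0.606). Cyp51 stood at 226 and 208 CPM in control vector libraries and 166 and 122 CPM in miR-96 libraries (edgeR log2 ratio -0.59 ± 0.19 SE, adjusted p = 0.446) and Lss at 95.8 and 77.3 CPM in control vector libraries and 63.2 and 59.4 CPM in miR-96 libraries (edgeR log2 ratio -0.50 ± 0.22 SE, adjusted p = 0.574). Ebp stood at 42.7 and 39.9 CPM in control vector libraries and 33.7 and 28.2 CPM in miR-96 libraries (edgeR log2 ratio -0.41 ± 0.16 SE, adjusted p = 0.543). In these 5 the higher miR-96 library stayed below the lower control library. Of the separated enzymes, log2 ratios were nearest to 0 for Fdft1 at 129 and 94.0 CPM in control vector libraries and 91.8 and 83.8 CPM in miR-96 libraries (log2 ratio -0.34), for Mvk at 20.3 and 15.5 CPM in control vector libraries and 14.0 and 14.7 CPM in miR-96 libraries (-0.32) and for Dhcr7 at 25.5 and 21.6 CPM in control vector libraries and 20.5 and 20.6 CPM in miR-96 libraries (-0.19).

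In the remaining 6 enzymes the libraries overlapped. Idi1 stood at 252 and 309 CPM in control vector libraries and 252 and 153 CPM in miR-96 libraries, with miR-96 library 2 alone below the rest (log2 ratio -0.46). Sqle stood at 144 and 108 CPM in control vector libraries and 108 and 82.2 CPM in miR-96 libraries (-0.40) and Nsdhl at 41.3 and 30.0 CPM in control vector libraries and 31.5 and 18.2 CPM in miR-96 libraries (-0.51), where 1 miR-96 library lay between the controls. Msmo1 stood at 106 and 69.1 CPM in control vector libraries and 68.3 and 79.0 CPM in miR-96 libraries (-0.26) and Sc5d at 68.9 and 60.2 CPM in control vector libraries and 63.9 and 64.8 CPM in miR-96 libraries (-0.0057). Hsd17b7 at 71.6 and 47.7 CPM in control vector libraries and 78.6 and 59.8 CPM in miR-96 libraries was the 1 enzyme with a positive log2 ratio (0.21).

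Among the control and uptake genes, Srebf2 stood at 366 and 322 CPM in control vector libraries and 286 and 271 CPM in miR-96 libraries, separated downward (edgeR log2 ratio -0.30 ± 0.16 SE, adjusted p = 0.624). Insig2 overlapped at 24.0 and 21.2 CPM in control vector libraries and 17.1 and 26.4 CPM in miR-96 libraries, with a log2 ratio of -0.062 at an edgeR adjusted p of 0.960 and a 95% interval of -0.56 to 0.44. Its miR-96 libraries bracketed the controls, as did those of Npc1 at 61.6 and 64.2 CPM in control vector libraries and 48.3 and 75.4 CPM in miR-96 libraries. Insig1 stood at 139.7 and 115 CPM in control vector libraries and 112 and 121 CPM in miR-96 libraries and Scap at 105 and 129 CPM in control vector libraries and 119 and 86.6 CPM in miR-96 libraries, both with overlap. Tmem97, which carries a miR-96 site, stood at 51.1 and 51.6 CPM in control vector libraries and 39.2 and 33.2 CPM in miR-96 libraries, separated downward (edgeR log2 ratio -0.50 ± 0.16 SE, adjusted p = 0.445). Stard4 was separated by a small margin at 87.4 and 75.0 CPM in control vector libraries and 72.6 and 69.2 CPM in miR-96 libraries (edgeR log2 ratio -0.20 ± 0.17 SE, adjusted p = 0.784). Npc2 stood at 737 and 636 CPM in control vector libraries and 674 and 771 CPM in miR-96 libraries and Soat1 at 35.4 and 29.1 CPM in control vector libraries and 30.7 and 35.9 CPM in miR-96 libraries, and both overlapped.

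Upward, Abca1 had the largest difference at 7.22 and 5.80 CPM in control vector libraries and 11.6 and 13.3 CPM in miR-96 libraries (edgeR log2 ratio 0.93 ± 0.28 SE, adjusted p = 0.399), and its 3′ UTR holds a match for miR-96. Mylip stood at 2.04 and 2.71 CPM in control vector libraries and 4.03 and 3.73 CPM in miR-96 libraries (edgeR log2 ratio 0.71 ± 0.40 SE, adjusted p = 0.653) and Nr1h2 at 64.7 and 60.9 CPM in control vector libraries and 67.1 and 90.0 CPM in miR-96 libraries (edgeR log2 ratio 0.32 ± 0.17 SE, adjusted p = 0.633). For all 3 the miR-96 libraries were above the control libraries, whereas Abcg1 overlapped at 34.4 and 45.5 CPM in control vector libraries and 35.4 and 35.4 CPM in miR-96 libraries.

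**Figure D2:**
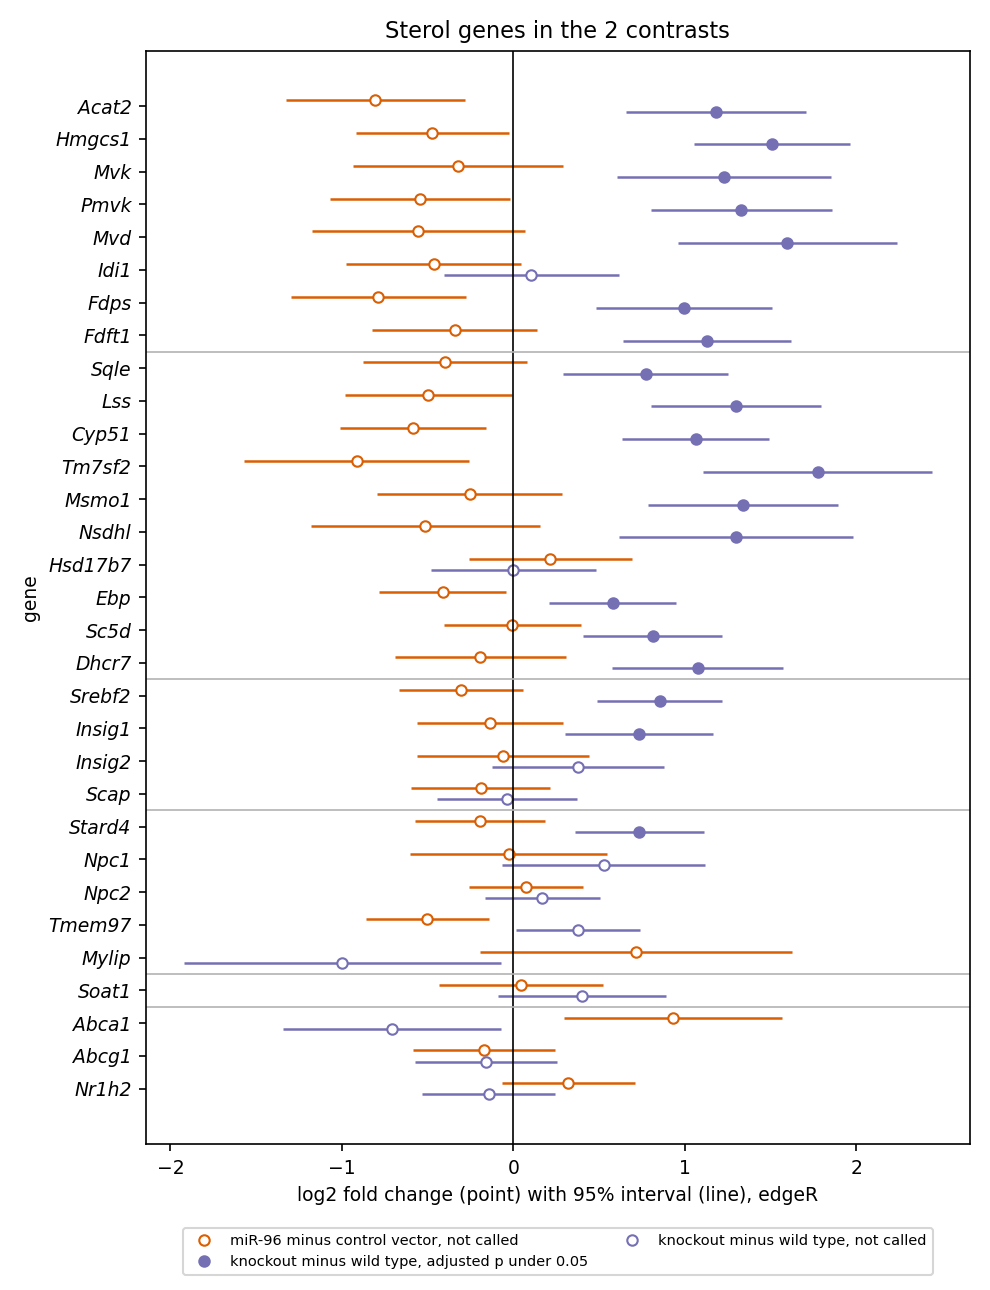
Points give the log2 fold change of each gene in the 2 contrasts and lines its 95% interval, with filled points called at an adjusted p under 0.05. Knockout minus wild type lies right of 0 for 26 genes, 19 of them called, and miR-96 minus control vector lies left of 0 for 25 genes, none called.

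The contrasts share no libraries, and their difference was tested directly as the miR-96 effect minus the knockout effect. By edgeR 18 members were lower in this difference and 1, Abca1, was higher, against 4.45% and 4.58% of all genes. An unadjusted p under 0.05 was reached by 22 members and by 3537 of the 11851 genes tested. Synthesis enzymes other than Idi1, Hsd17b7 and Sc5d were 15 of the 18, and Srebf2, Stard4 and Tmem97 the rest. Tm7sf2 had the largest difference (edgeR log2 ratio -2.69 ± 0.41 SE, adjusted p = 0.0146), followed by Mvd (edgeR log2 ratio -2.15 ± 0.39 SE, adjusted p = 0.0206), Acat2 (edgeR log2 ratio -1.99 ± 0.33 SE, adjusted p = 0.0167) and Hmgcs1 (edgeR log2 ratio -1.98 ± 0.28 SE, adjusted p = 0.0135). For Abca1 it was 1.64 (SE 0.40, edgeR adjusted p = 0.0395). Insig1 (-0.87 at an edgeR adjusted p of 0.0707), Sc5d (-0.82 at an edgeR adjusted p of 0.0700) and Mylip (1.71 at an edgeR adjusted p of 0.0877) missed the threshold. The count was 8 without control vector library 1, 9 without miR-96 library 2, 2 without wild-type library 1, and 0 without knockout library 1 or wild-type library 2, with at least 21 members at an unadjusted p under 0.05 in each. Abca1 was not called in any of the 8 fits that left out 1 library.

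The reference groups of the contrasts were also set against each other. Wild-type cells, which were not transduced, had log2 ratios to control vector cells below 0 for all 18 enzymes, with a median of -0.62, and their sum was 0.651 of that in control vector cells. By edgeR 0 members were called in this comparison, against 0.228% of genes, and 1958 of the 11851 genes tested had an unadjusted p under 0.05. An unadjusted p under 0.05 was found for 16 members, or for 8 without control vector library 1 and 10 without either wild-type library, and DESeq2 called 5 lower, which were Hmgcs1, Mvd, Fdps, Lss and Msmo1. Libraries did not overlap for 20 members lower and 4 higher (Mylip, Abca1, Abcg1 and Nr1h2), where 26.5% and 29.3% of all genes were so separated. Hmgcs1 was at 363 and 284 CPM in control vector cells and 172 and 182 CPM in wild type (edgeR log2 ratio -0.87 ± 0.20 SE, adjusted p = 0.129). Abca1 was at 7.22 and 5.80 and 16.6 and 12.5 CPM (edgeR log2 ratio 1.15 ± 0.28 SE, adjusted p = 0.142). This comparison uses the reference libraries of both contrasts, so its values are not independent of theirs. In summed enzymes the knockout stood at 1.3 times the control vector mean and 1.99 times the wild-type mean. Transduction and any other difference between the 2 experiments cannot be told apart.

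**Figure D3:**
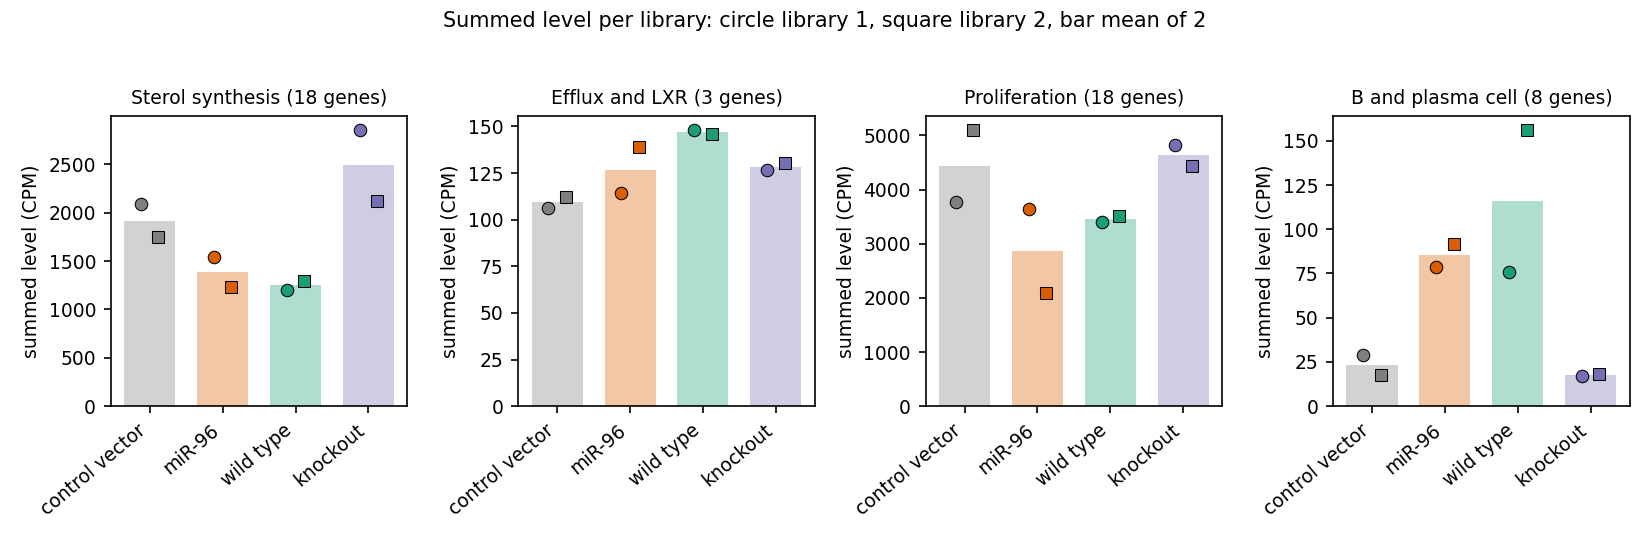
Each panel gives the summed CPM of a gene list in each library (circle for library 1, square for library 2) and the mean of the 2 as a bar, by group. Sterol synthesis was highest in the knockout and lowest in wild type and miR-96 libraries, efflux and LXR genes were lowest in the control vector libraries, and B and plasma cell genes were lowest in the knockout and control vector libraries.

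Calls in the companion lists of the sterol network are given beside a share of 6.63% of all genes called higher and 6.4% called lower in the knockout. Of 13 genes of SREBP processing and turnover, 1 rose and 2 fell in the knockout. Srebf1, which encodes SREBP-1, rose (edgeR log2 ratio 0.76 ± 0.17 SE, adjusted p = 0.0303). Fbxw7, the reported miR-182 target that marks nuclear SREBP for breakdown, fell (edgeR log2 ratio -0.68 ± 0.17 SE, adjusted p = 0.0400), as did Rnf145, a sterol-responsive ubiquitin ligase (edgeR log2 ratio -0.57 ± 0.15 SE, adjusted p = 0.0434). With miR-96, the log2 ratio of Fbxw7 was 0.20 at an edgeR adjusted p of 0.785. On the isoprenoid branch, which draws on the same farnesyl and geranylgeranyl precursors, 1 of 12 genes fell, the prenyltransferase subunit Rabggtb (edgeR log2 ratio -0.61 ± 0.14 SE, adjusted p = 0.0317), and 0 rose. Nus1, a subunit of dehydrodolichyl diphosphate synthase, had a log2 ratio of -0.57 at an edgeR adjusted p of 0.0541. The branch median was -0.11, beside 1.21 for the enzymes up to squalene.

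Of 17 further genes of uptake, lysosome and sterol transfer, 1 rose and 0 fell in the knockout. The lipoprotein receptor gene Vldlr was not called, with a log2 ratio of 2.75 at an edgeR adjusted p of 0.0523. Scarb1, the HDL receptor reported as a miR-96 target in liver, had one of 0.43 at an edgeR adjusted p of 0.0954 in the knockout and of -0.32 at an edgeR adjusted p of 0.608 with miR-96. Of 12 genes of oxysterol and LXR biology, 8 were tested, of which 0 rose and 1 fell, Gpr183, an oxysterol receptor of T cells (edgeR log2 ratio -0.93 ± 0.22 SE, adjusted p = 0.0330). The log2 ratio was above 0 in 4 of the 8, with a median of 0.13, and the list summed to 260.3 and 259 CPM in wild-type libraries and 340.2 and 291 CPM in knockout libraries. Of 10 fatty acid genes also under SREBP, 3 rose. They were the desaturases Fads2 (edgeR log2 ratio 2.41 ± 0.34 SE, adjusted p = 0.0246) and Fads1 (edgeR log2 ratio 0.99 ± 0.21 SE, adjusted p = 0.0306), and Acss2, which makes acetyl-CoA from acetate (edgeR log2 ratio 2.24 ± 0.42 SE, adjusted p = 0.0258). Fasn, the fatty acid synthase, had a log2 ratio of -0.29 at an edgeR adjusted p of 0.279 and Acaca, acetyl-CoA carboxylase, of -0.45 at an edgeR adjusted p of 0.179. No gene of these 5 companion lists was called with miR-96, where 9 of the 10 fatty acid genes were below 0 and the lowest was Fads2 (-1.50 at an edgeR adjusted p of 0.322).

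**Figure D4:**
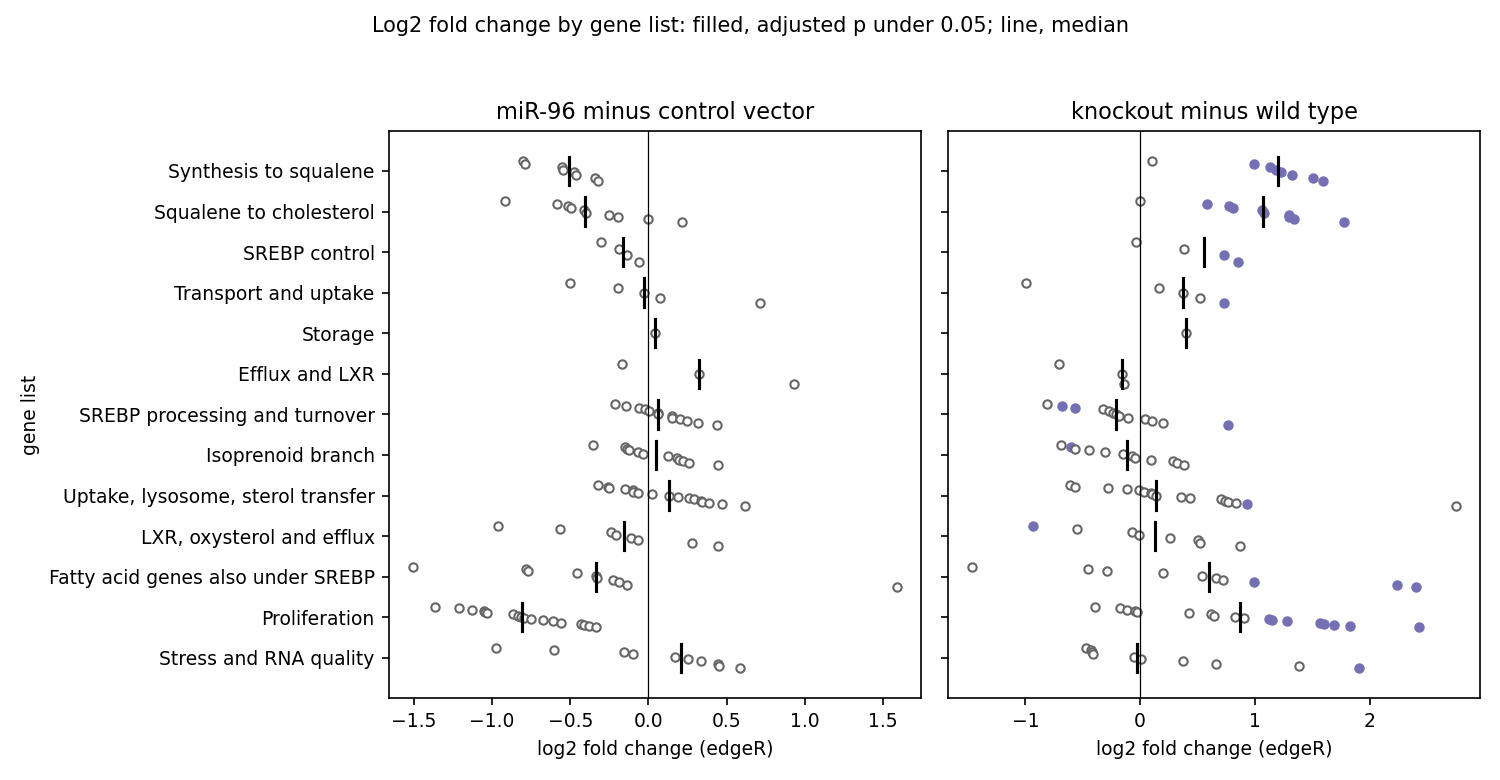
Each point is a gene, placed by its log2 fold change with miR-96 (left) and in the knockout (right), filled when called at an adjusted p under 0.05, and the line marks the median of the list. The medians of the 2 synthesis lists and of the proliferation list lie left of 0 with miR-96 and right of 0 in the knockout. The same holds for the SREBP control, transport and uptake, fatty acid, and LXR, oxysterol and efflux lists. Medians of the efflux and LXR, SREBP processing, stress and isoprenoid lists lie the other way. Several medians lie near 0. With miR-96 these include transport and uptake (-0.028), isoprenoid (0.046) and SREBP processing (0.062), and in the knockout stress (-0.023) and isoprenoid (-0.11).

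Proliferation genes differed between groups too. For their 18 genes summed, control vector libraries stood at 3769 and 5105 CPM, miR-96 libraries at 3642 and 2097, wild-type libraries at 3394 and 3512 and knockout libraries at 4829 and 4435. In the knockout 8 of 18 rose and 0 fell, beside the 6.63% of all genes called higher, among them Ccnb2, a mitotic cyclin (edgeR log2 ratio 2.43 ± 0.32 SE, adjusted p = 0.0246), and Plk1, a mitotic kinase (edgeR log2 ratio 1.83 ± 0.35 SE, adjusted p = 0.0261). The replication genes Mcm2, Mcm5 and Mcm6 had log2 ratios of -0.39, -0.11 and -0.17 and were not called. With miR-96 all 18 were below 0 and 0 were called by edgeR, with 12 at an unadjusted p under 0.05. Over all genes tested 1031 of 11851 reached that p. Within 3 groups the library with the higher proliferation sum also had the higher enzyme sum (library 1 for miR-96 and the knockout, library 2 for wild type). In the control vector group library 2 had the higher proliferation sum and library 1 the higher enzyme sum.

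Several lists of other cells had lower values in the knockout and higher values with miR-96. For 8 B and plasma cell genes summed, control vector libraries stood at 28.7 and 17.5 CPM, miR-96 libraries at 78.7 and 91.8, wild-type libraries at 75.8 and 156 and knockout libraries at 17 and 18.2. Of the 7 tested, 5 fell in the knockout, beside 6.4% of all genes called lower. With miR-96 Jchain, the joining chain of antibodies (edgeR log2 ratio 7.67 ± 0.68 SE, adjusted p = 0.00829), and Cd79a, a part of the B cell receptor (edgeR log2 ratio 4.07 ± 0.47 SE, adjusted p = 0.0149), rose, as did Foxp3, which defines regulatory T cells (edgeR log2 ratio 5.29 ± 0.72 SE, adjusted p = 0.0459). Over the 8 libraries Jchain ranged from 0.0784 to 64.3 CPM, Cd79a from 0.387 to 16.6 and Foxp3 from 0 to 22.8. The low ends are at or near the floor, so the size of these ratios is uncertain. Such genes, those that fell in the knockout included, pass the filter through the libraries where they are high. Pax5, a defining B cell gene, stayed at or below 0.793 CPM in every library. For 4 Th1 genes summed, control vector libraries stood at 253 and 220.5 CPM, miR-96 libraries at 478 and 481, wild-type libraries at 465 and 738 and knockout libraries at 251 and 247. Regulatory T cell genes (4) ranged from 1605 to 2463 CPM, with both knockout libraries below both wild-type libraries. Most of this sum was Il2ra (1355 to 1897 CPM), while Foxp3 and Ikzf2 stayed at or below 22.8 and 57.7 CPM. Th17 and T cell genes (9 of 10 in the table) ranged from 1095 to 2096 CPM. Of these, Il17a (edgeR log2 ratio -3.45 ± 0.37 SE, adjusted p = 0.0211) and Il17f (edgeR log2 ratio -2.48 ± 0.35 SE, adjusted p = 0.0246) fell and Cd3e (edgeR log2 ratio 0.51 ± 0.14 SE, adjusted p = 0.0470) rose in the knockout. Myeloid genes (7) reached 26.5 CPM at most, with Adgre1 at 0 in 4 libraries. CD8 T and NK genes (7) ranged from 203 to 753 CPM, most of it Gzmb, which helper T cells also express, and Ncr1 was at 0 in all 8. Th2 genes (4) ranged from 17.6 to 141 CPM, and stress genes (10) from 1229 to 1818 CPM, where Fos, an immediate early gene, rose in the knockout (edgeR log2 ratio 1.91 ± 0.29 SE, adjusted p = 0.0246). Whether any list of other cells bears on the sterol genes was not tested. In Y-linked RNA the control vector group was lowest and the knockout group highest by mean, though the highest single library was miR-96 library 2 (329.8 CPM). These 2 groups had the highest enzyme sums. Xist was lower in both knockout libraries (0 and 144 CPM) than in both wild-type libraries (1217 and 389.7 CPM). The part of sex in the enzyme levels was not tested.

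Per exon length the members spanned a wide range. Npc2, which hands cholesterol to NPC1 in the lysosome, was highest with a mean of 136 CPM per kb over the 8 libraries. Hmgcs1 (67.4) and Idi1 (67.1) followed, close to each other, then Fdps (47.0), Cyp51 (46.4) and Srebf2 (45.9), whose ranges overlapped across libraries. At the bottom were Tm7sf2 (2.74), Mylip (1.04) and Abca1 (1.02). The enzyme with the largest fold change was thus the least abundant of the enzymes, while Hmgcs1 combined a large fold change with a high level. The 18 enzymes took 0.120% to 0.286% of all gene counts.

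**Figure D5:**
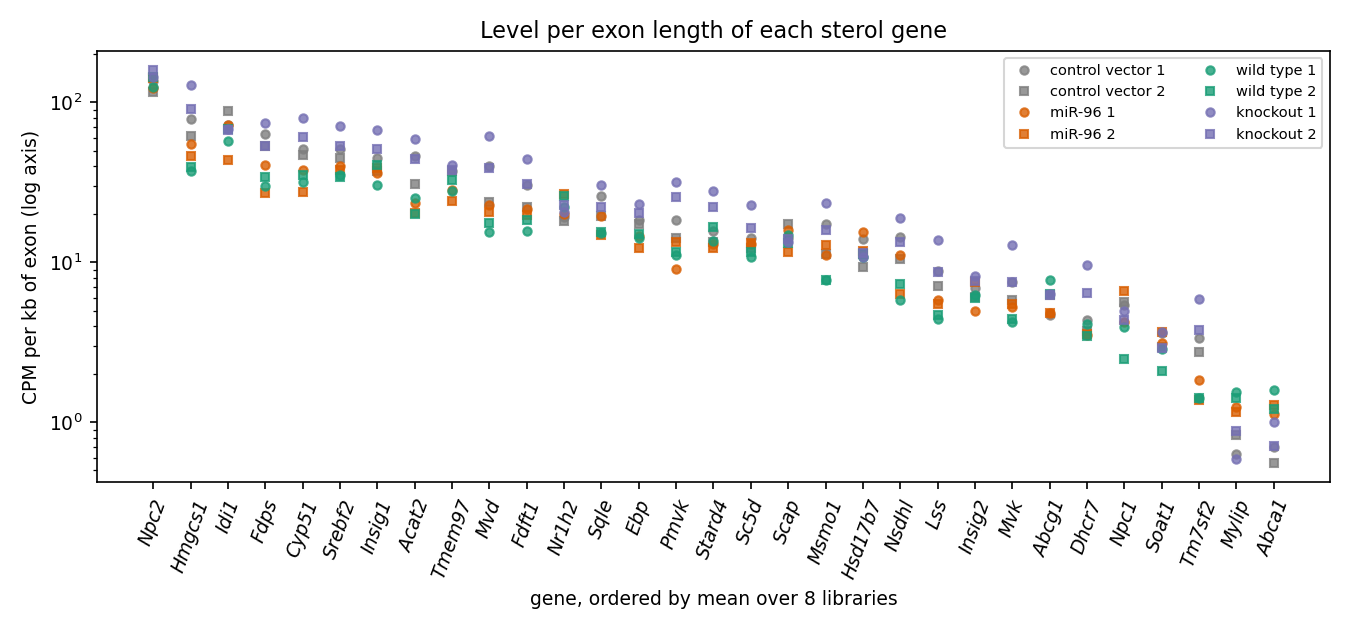
The vertical axis gives CPM per kb of annotated exon on a log axis for each gene, ordered by its mean over the 8 libraries, with 1 mark per library coloured by group. Npc2 stands above all others and Mylip and Abca1 lie lowest, and knockout marks lie above wild-type marks for 24 genes.

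Promoter windows of 300 bases (250 before to 50 after a start, RefSeq, GRCm38.p6) were given for 25 members. Fdps, Fdft1, Sqle, Stard4, Npc1 and Abcg1 had no window and were not searched. The sterol regulatory element TCACNCCAC, the sequence SREBP binds, was searched on both strands and found in 1 of the 25, Hmgcs1, and in 1.33% of 9082 tested genes with a window. The CCAAT box, which is bound by NF-Y, a partner of SREBP, was found as CCAAT on either strand in 21 of 25 members and in 43.0% of tested genes. Of the 21, 14 rose in the knockout, beside 6.63% of all genes called higher. The 4 without it were Acat2, which rose, and Scap, Abca1 and Nr1h2, which are not synthesis enzymes and were not called. The box and the role of a gene cannot be told apart in this split, which was not tested. An LXR element, given as 2 AGGTCA half-sites 4 bases apart with no mismatch, was found in 0 of the 25 and in 0 of all tested genes. The stretches of 250 bases before the start are shown for Hmgcs1, the only member of the 25 with the element in its window, and for Mvk and Msmo1, which rose and hold several CCAAT boxes. Capitals mark the sterol element (in Hmgcs1, beginning 137 bases before the start) and CCAAT boxes, which read ATTGG when on the other strand.
Hmgcs1, chr13:119690101-119690350, plus strand: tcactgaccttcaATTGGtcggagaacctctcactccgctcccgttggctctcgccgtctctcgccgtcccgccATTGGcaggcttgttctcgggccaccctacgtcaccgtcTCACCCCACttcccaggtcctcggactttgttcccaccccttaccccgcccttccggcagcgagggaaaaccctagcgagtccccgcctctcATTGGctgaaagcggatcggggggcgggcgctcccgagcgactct
Mvk, chr5:114444019-114444268, plus strand: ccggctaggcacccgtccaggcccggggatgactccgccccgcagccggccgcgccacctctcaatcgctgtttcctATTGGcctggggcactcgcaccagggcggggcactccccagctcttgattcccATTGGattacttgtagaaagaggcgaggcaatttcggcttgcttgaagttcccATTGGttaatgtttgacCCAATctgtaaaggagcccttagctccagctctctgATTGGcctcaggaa
Msmo1, chr8:64733579-64733828, minus strand: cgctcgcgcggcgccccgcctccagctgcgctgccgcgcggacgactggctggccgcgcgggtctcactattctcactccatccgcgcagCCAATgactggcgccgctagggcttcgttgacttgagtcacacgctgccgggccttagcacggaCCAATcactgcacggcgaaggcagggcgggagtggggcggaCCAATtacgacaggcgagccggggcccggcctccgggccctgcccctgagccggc

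These stretches hold 3, 5 and 3 CCAAT boxes, none of which overlaps the sterol element. Matches were counted as letters, and binding was not measured.

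Of the 12 with a match for any of the 3 microRNAs, 6 rose in the knockout (Acat2, Hmgcs1, Mvd, Tm7sf2, Sc5d and Insig1), as did 13 of the 19 without one, and the medians of the log2 ratio were 0.57 and 0.85. With miR-96, the 8 members with a miR-96 match ranged from -0.81 (Acat2) to 0.93 (Abca1), with a median of -0.12, and the 19 with no match of the 3 had a median of -0.32. These medians describe the lists and carry no test.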

How the data were processed

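RNA of 8 libraries was measured. The authors deposited 1 estimated count per gene and library, without normalization, and such values need not be whole. Tools listed in the submitters' processing notes, without roles, are STAR 2.3.0, Partek, edgeR and bcl2fastq 2.16.0.10, with the build mm10. The annotation and whether counting used strand are not given in the sources used here, so overlapping genes are uncertain. Of 24453 lines, 27 named a date instead of a gene (at most 0.243% of a library) and were left out. Estimated counts were rounded, filtered with filterByExpr (minimum count 10, total 15), scaled by TMM and fitted by the quasi-likelihood model of edgeR 4.0.16 in R 4.3.3 to all 8 libraries, with 4 residual degrees of freedom and a biological coefficient of variation of 0.188. Adjusted p-values (Benjamini-Hochberg) are over all 11851 genes tested. Levels are CPM computed here, and intervals (95%) and SE come from that fit. A floor of 3 counts covers counting error only. Gene positions, exon lengths and 3′ UTRs are from GENCODE M21, on GRCm38 like mm10.

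The members, lists, tests and naming rule were chosen with earlier results of these data known. All members may be named, and of each companion list those called and up to 2 with the smallest p, plus Fbxw7, Insig2 and Scarb1; other genes were named after their values were seen. The gene called in the list of uptake and lysosome genes is not reported here. Deviations of same-numbered libraries correlated at r = -0.22 (control vector and miR-96) and 0.095 (wild type and knockout). These values show no strong shared deviation, but they cannot tell whether libraries were paired by number. The main fit used no pairing. The alternatives tried were upper-quartile and RLE factors, no filter, a filter of 1 CPM in 2 libraries, DESeq2 1.42.0, only the compared groups, a replicate block, each library left out, a 6-base seed match and a shorter sterol element.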

Additional observations from a re-analysis of the deposited data

How the results depend on the processing

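In knockout minus wild type, other normalizations and filters, DESeq2 and the compared groups alone each called 19 members, the replicate block 17 and a crossed block (miR-96 numbers swapped, chosen after seeing the data) 20. Leaving out 1 library gave 0 to 19 calls there, 0 to 19 for the difference of contrasts, and 0 to 0 for both miR-96 minus control vector and wild type minus control vector, and a lone library is then assumed to vary like the other groups. The block gave 17 for the difference and 0 for the remaining comparisons. Without the filter 3 members were called lower with miR-96 (466 genes in all, against 13). In wild type minus control vector, no filter gave 13 calls, DESeq2 5 and the crossed block 1. The 6-base match took members with a site from 12 to 20 (51.9% of genes), and the shorter element CACNCCAC those with a sterol element from 1 to 3 (7.51% of genes). Over all genes, knockout calls were 1544, 3151 without the filter, 2641 with the compared groups alone and 2888 with the crossed block. The causes were not tested. With 2 libraries a group, counts of calls are limited by the spread within groups.

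Signs turned for uncalled log2 fold changes near 0. In the knockout Scap was 0.036 with upper-quartile factors, and Hsd17b7 -0.00068 with no filter and -0.00045 with the 1 CPM filter. With 1 library left out, ranges crossing 0 were Idi1 -0.024 to 0.24, Hsd17b7 -0.048 to 0.055 and Scap -0.12 to 0.038 in the knockout. They were Msmo1 -0.52 to 0.064, Hsd17b7 -0.036 to 0.51, Sc5d -0.087 to 0.068, Insig2 -0.40 to 0.23, Scap -0.43 to 0.017, Npc1 -0.38 to 0.27, Npc2 -0.027 to 0.18, Soat1 -0.076 to 0.17 and Abcg1 -0.39 to 0.055 with miR-96. For the difference they were Hsd17b7 -0.040 to 0.48, Scap -0.40 to 0.051, Npc2 -0.20 to 0.0042 and Abcg1 -0.26 to 0.21, and in wild type minus control vector Hsd17b7 -0.34 to 0.21, Dhcr7 -0.22 to 0.030, Stard4 -0.088 to 0.19 and Npc2 -0.014 to 0.19.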
